A study of Drosophila melanogaster with 6 samples.

Results

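The Dscam family of Drosophila comprises 4 genes, Dscam1, Dscam2, Dscam3 and Dscam4, which were found by gene identifier among the 17453 genes listed for each library. All 4 passed the filter on low counts and were among the 11670 genes tested. Their RNA was measured in adult fly heads, males and females pooled, of genotype y1 w*; P{PTT-GA}Zn72D[CA07703], in which a protein trap places GFP in the gene for the zinc finger RNA-binding protein Zn72D. The groups were 3 libraries of RNA recovered from head lysate with an anti-GFP antibody (RIP) and 3 libraries of a small part of the same kind of lysate (input), numbered 1 to 3 in each group. Input and RIP flies carried the same trap, and a mock or untagged control precipitation was not analysed here; each enrichment is relative to input and is not set against the background of the beads or the antibody. What the numbers 1 to 3 mark, separate batches of flies or repeated preparations, is not stated, and the p-values cover only the variation among these libraries, which could be technical.

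Dscam proteins are cell surface receptors of the immunoglobulin superfamily, with a row of immunoglobulin and fibronectin type III domains outside the cell and a cytoplasmic tail. The pre-mRNA of Dscam1 is spliced through clusters of mutually exclusive exons into very many isoforms, each of which binds mainly to itself, and in neurons this lets sister branches of 1 cell recognise and avoid each other. Dscam2 has a single such choice between alternative exons, and its isoforms act in the tiling and synaptic wiring of the visual system. Dscam3 and Dscam4 are the other paralogs and are less well described.

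Dscam1 (FBgn0033159) lies on the minus strand of dm6 chromosome 2R, 7317924 to 7381899, and 75 of its transcripts were listed. Dscam2 (FBgn0265296) lies on the minus strand of 3L, 7159199 to 7189931, with 15 transcripts, and Dscam4 (FBgn0263219) on the plus strand of 3L, 8238647 to 8282398, with 5. Dscam3 (FBgn0261046) lies on the minus strand of 3R, 17473935 to 17505667, with 4 transcripts. The transcripts of the 4 genes are long, up to 9145 bases in Dscam1, 10070 in Dscam2, 8231 in Dscam3 and 7815 in Dscam4. The values are sums over all transcripts of a gene, so the alternative exons of Dscam1 and Dscam2 were not told apart.

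The input libraries held 34401553 to 38331703 expected counts and the RIP libraries 28070655 to 38182015. rRNA took 79.9% ± 2.67 of input counts and 6.55% ± 2.49 of those in RIP (SD, n = 3), which left 5864723 to 8182107 counts outside rRNA in input and 25434735 to 36377598 in RIP. Members were therefore counted more deeply in RIP than in input. RIP 3 stood apart from the other RIP libraries. The chi-square of 2 libraries' counts over its degrees of freedom was 138 with RIP 1 and 136 with RIP 2. Between RIP 1 and RIP 2 it was 14.8. In input it was 40.3 for libraries 1 and 2, 44.3 for 1 and 3 and 33.8 for 2 and 3, so input 3 did not stand apart by this measure. The counts used for it included rRNA. Across genes, the deviations of input 3 and RIP 3 from their group means correlated at 0.848. Those of input 3 correlated at -0.789 with RIP 1 and -0.764 with RIP 2. The deviations of input 1 and input 2 went the other way, at 0.665 and 0.604 with RIP 1 and at -0.706 and -0.659 with RIP 3. Deviations within a group sum to 0, so these correlations are not independent of each other. RSEM's posterior SD of the count was 0.31 or less for every member in every library, so almost no member reads were shared with another gene. Exons of Dscam1 overlap the antisense genes asRNA:CR44071 and asRNA:CR45129, by 278 and 743 bases, and whether reads were counted by strand is not stated. These antisense genes were listed at no more than 11 and 20 counts in any library, against at least 767 for Dscam1.

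All 4 Dscam RNAs were enriched in RIP. Dscam2 rose 2.38-fold, and Dscam3, Dscam1 and Dscam4 rose 1.70-fold, 1.63-fold and 1.56-fold. For each of them the 3 RIP libraries lay above the 3 input libraries, as they did for 26.5% of all tested genes. Values are CPM, counts relative to the TMM-scaled library size. Both groups are bulk head RNA, so a level does not tell how many cells held the RNA or how much each held.

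Dscam2 was counted at 2367, 3658 and 2741 in input 1, 2 and 3 and at 27288, 30551 and 14919 in RIP 1, 2 and 3. Its CPM was 143.8, 168 and 141 in input and 359, 406 and 314 in RIP, so even the highest input library was far below the lowest RIP library. The group means were 151 ± 15.0 CPM in input and 360 ± 46.5 in RIP (SD, n = 3). The log2 fold change was 1.25 ± 0.13 (SE; edgeR quasi-likelihood test, adjusted p = 0.00105).

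Dscam1, the receptor of self-avoidance, had 46.6, 53.8 and 53.7 CPM in input 1, 2 and 3 and 83.6, 91.4 and 75.5 in RIP 1, 2 and 3. The groups did not overlap, and RIP 3 was the lowest of its group while input 3 was not. The log2 fold change was 0.70 ± 0.11 (edgeR adjusted p = 0.00355).

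Dscam3 had the lowest CPM of the family, 35.3, 44.5 and 40.2 in input and 66.1, 75.5 and 63.0 in RIP. In both groups replicate 2 was the highest library. The log2 fold change was 0.77 ± 0.12 (edgeR adjusted p = 0.00389).

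Dscam4 varied least among the input libraries, with 60.9, 62.8 and 64.8 CPM, and had 99.98, 104 and 89.6 CPM in RIP. Again RIP 3 was the lowest RIP library. The log2 fold change was 0.64 ± 0.09 (edgeR adjusted p = 0.00228).

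**Figure D1:**
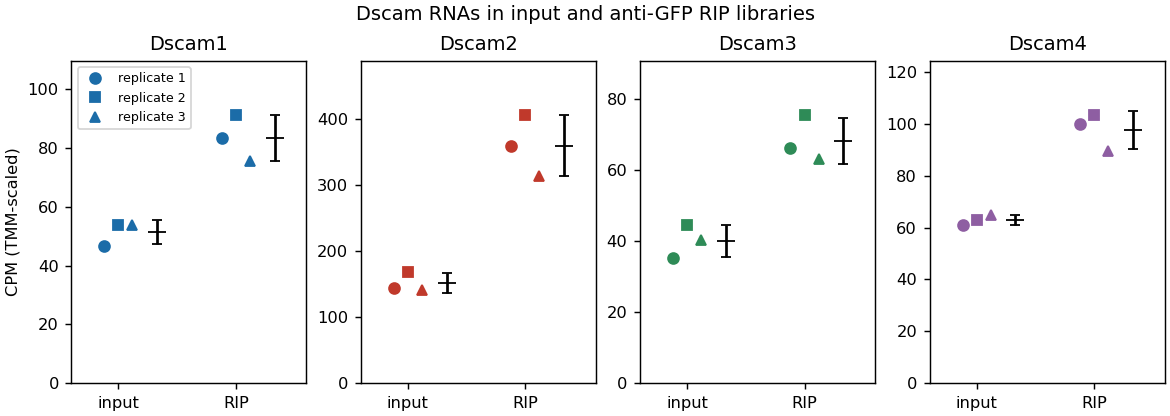
CPM (TMM-scaled, linear axis from 0, a separate scale for each gene) of the 4 Dscam RNAs in each input and RIP library; the marker shape gives the replicate number and the bar beside each group the mean and SD of 3 libraries. All RIP points lie above all input points of the same gene, and RIP 3 is the lowest RIP point in each.

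The background for the 4 calls is 20.2% of all tested genes enriched and 17.0% depleted at the same threshold (adjusted p under 0.05). Enrichment moved with transcript length across the whole table. The median log2 fold change was -0.88 over 2376 genes with a mean length under 1000 bases, -0.20 over 4044 genes of 1000 to 2000 bases, 0.30 over 3559 genes of 2000 to 4000, 0.65 over 1313 genes of 4000 to 7000 and 0.74 over 378 genes of 7000 bases or more. The Dscam genes, with mean lengths of 8190 (Dscam1), 8472 (Dscam2), 7346 (Dscam3) and 7310 bases (Dscam4), are all in the last group, where 77.2% of genes were enriched and 0 were depleted. A count of 4 called of 4 is therefore close to what long genes in general showed.

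Read against the 378 long genes, only Dscam2 stood well above the middle. Its log2 fold change exceeded that of 80.4% of them, while Dscam3 exceeded 52.6%, Dscam1 46.0% and Dscam4 39.9%. Among all tested genes the same values lay above 96.3% for Dscam2 and above 85.5%, 82.7% and 80.2% for Dscam3, Dscam1 and Dscam4.

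With the length trend removed from every library, none of the 4 passed the test. Dscam2 was at log2 0.41 ± 0.14 (edgeR adjusted p = 0.0931), Dscam3 at -0.02 ± 0.11 (0.929), Dscam1 at -0.12 ± 0.09 (0.422) and Dscam4 at -0.15 ± 0.08 (0.26). There, 10.2% of all genes were called enriched and 10.6% depleted, and of the long genes 21.4% and 27.5%. When replicate number was added as a block, the values barely moved and Dscam2 was called enriched (log2 0.41 ± 0.07, edgeR adjusted p = 0.00071), where 27.1% of all genes were enriched and 23.2% depleted, and of the long genes 28.3% and 39.9%. Without the length correction the block left all 4 members enriched, where 32.7% of all genes were enriched and 27.7% depleted. The long genes had a median log2 fold change of 0.74 in that fit. All 4 members are long genes, and the part of length in their enrichment was not tested.

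The size of the enrichment also depended on the scaling. Scaled to the library size outside rRNA, Dscam2 remained enriched at log2 0.87 (edgeR adjusted p = 0.00964), against a median of -0.32 for all genes. In that fit Dscam3 stood at 0.39, Dscam1 at 0.33 and Dscam4 at 0.26, and none of these passed (adjusted p = 0.0809, 0.0958 and 0.125), with 11.2% of all genes enriched and 31.8% depleted. Relative to the median gene, the distances were close to those with TMM, where the median was 0.06.

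**Figure D2:**
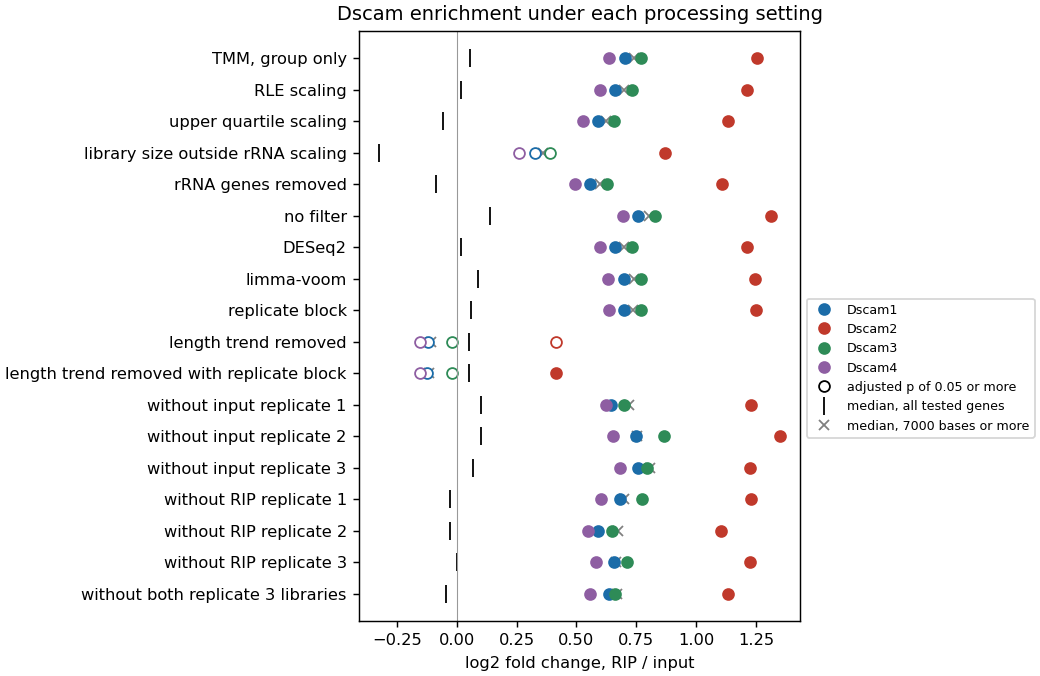
Log2 fold change of each Dscam RNA under 18 settings (filled, adjusted p under 0.05; open, 0.05 or more), with the median of all tested genes as a black stroke and that of genes of 7000 bases or more as a grey cross. Dscam2 lies to the right of the other members in every setting shown; open symbols occur with the length trend removed and with scaling to the library size outside rRNA. Library size scaling and TPM, which shift all genes upward, are not drawn.

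A ratio of 2 members within a library does not depend on the scaling, so the difference in enrichment between members was tested on such ratios. The 6 pairs were compared with two-sided exact permutation tests over the 3 RIP and 3 input libraries, which cannot give a p below 0.1. The log2 ratio of Dscam1 to Dscam2 counts was -1.63, -1.65 and -1.39 in input 1, 2 and 3 and -2.10, -2.15 and -2.05 in RIP 1, 2 and 3. The groups did not overlap, and the RIP minus input difference was -0.55 (exact p = 0.1, 0.2 adjusted over the 6 pairs).

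The ratios of Dscam2 to the other members moved the same way. Dscam2 over Dscam3 was 2.03, 1.92 and 1.81 in input and 2.44, 2.43 and 2.32 in RIP, a difference of 0.48. Dscam2 over Dscam4 was 1.24, 1.42 and 1.12 in input and 1.84, 1.97 and 1.81 in RIP, a difference of 0.61. Neither pair of groups overlapped, and both had an exact permutation p of 0.1 (0.2 adjusted), the smallest that 3 against 3 allows.

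Dscam1, Dscam3 and Dscam4 were not set apart from each other. The difference in enrichment was -0.07 for Dscam1 over Dscam3 (exact p = 0.3), 0.07 for Dscam1 over Dscam4 (exact p = 0.4) and 0.14 for Dscam3 over Dscam4 (exact p = 0.3), with overlapping groups in each. Single RIP and input libraries differed by -0.15 to 0.06, -0.03 to 0.20 and -0.10 to 0.33 in these 3 ratios. Taken between libraries of the same number, the differences were -0.06, 0.00 and -0.15 for Dscam1 over Dscam3 in replicates 1, 2 and 3 (exact sign-flip permutation p = 0.5). They were 0.13, 0.04 and 0.03 for Dscam1 over Dscam4 and 0.19, 0.04 and 0.18 for Dscam3 over Dscam4, above 0 in all 3 pairs of both (exact sign-flip permutation p = 0.25, the smallest that 3 pairs allow). When the counts were divided by effective length first, Dscam1 over Dscam4 differed by 0.16 without overlap (exact permutation p = 0.1, 0.15 adjusted over the 6 pairs).

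Levels of different genes were compared per length and within a library, as TPM rescaled to the genes outside rRNA. The order was Dscam2, Dscam4, Dscam1, Dscam3 in every library of both groups. In input, Dscam2 stood at 42.9 ± 7.32, Dscam4 at 20.999 ± 1.22, Dscam1 at 14.8 ± 1.52 and Dscam3 at 13.0 ± 2.14 TPM outside rRNA (SD, n = 3). Dscam1 and Dscam3, neighbours in that order, did not differ beyond their spread in these means, although Dscam1 was the higher in each library, by log2 0.09 to 0.26 in input and 0.10 to 0.17 in RIP. In RIP the levels were 249 ± 48.2 for Dscam2, 77.5 ± 11.2 for Dscam4, 60.9 ± 9.90 for Dscam1 and 54.97 ± 7.75 for Dscam3. These levels are not compared between input and RIP, because TPM divides a fixed total among all genes of a library. An alternative fit on log2(TPM + 1), from the deposited TPM, did compare the groups, and there the median gene stood at log2 2.54.

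As a share of the summed level of the family, Dscam2 made up 47.6%, 48.5% and 43.8% in input 1, 2 and 3 and 55.98%, 57.5% and 55.1% in RIP 1, 2 and 3. The share of Dscam4 was 21.3% to 24.1% in input and 16.7% to 17.99% in RIP. Dscam1 took 15.6% to 17.2% in input and 13.6% to 13.9% in RIP, and Dscam3 13.1% to 14.9% and 12.1% to 12.97%. The Dscam2 share was the only one higher in RIP, and the groups did not overlap for any of the 4. The shares sum to 100, so that a higher share of 1 member lowers those of the others.

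**Figure D3:**
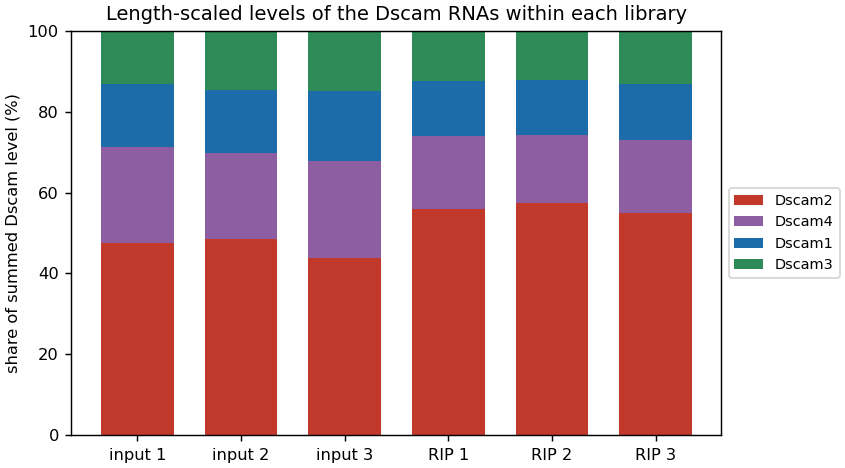
Share of each Dscam RNA in the summed length-scaled level of the family (percent, stacked to 100) in each input and RIP library. The Dscam2 segment spans 43.8% to 48.5% in input and 55.1% to 57.5% in RIP, and the other segments are narrower in RIP.

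The deposited tables also give a length for each gene and library, which RSEM weights by the estimated abundance of the gene's transcripts, so that it moves when the mixture of transcripts moves. For Dscam4 the input libraries 1, 2 and 3 had lengths of 7042, 7052 and 7071 bases, and the RIP libraries 7507, 7526 and 7663. The groups lay far apart compared with the spread within input, and the difference was 510.1 bases (exact permutation p = 0.1, 0.2 adjusted over the 4 genes). Among 4011 genes with 2 or more transcripts and at least 100 counts in every library, the difference of Dscam4 exceeded that of 95.7% in bases and of 89.6% as a log2 ratio of lengths, and the median difference was 7.58 bases.

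The transcripts of Dscam4 fall into 2 length classes that differ mainly in their 3′ UTR, while their coding lengths are close. Dscam4-RD and Dscam4-RI, of 7764 and 7815 bases, have a 3′ UTR of 1491 bases, and Dscam4-RE, Dscam4-RH and Dscam4-RJ, of 6229, 6529 and 6454 bases, have 3′ UTRs of 240, 388 and 240 bases. Given these lengths, a weighted length fixes bounds on the share of the long class among Dscam4 transcripts. The bounds were 39.9% to 53.0%, 40.7% to 53.6% and 42.1% to 54.9% in input 1, 2 and 3. They were 76.0% to 83.2%, 77.5% to 84.5% and 88.2% to 93.4% in RIP 1, 2 and 3. The intervals of input and RIP do not overlap; they rest on RSEM's division of reads among transcripts, whose error the gene tables do not give.

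Dscam2 also had a greater weighted length in RIP. Input stood at 8231, 8254 and 8438 bases, RIP at 8629, 8553 and 8726, a difference of 328 bases without overlap (exact permutation p = 0.1, 0.2 adjusted), above that of 91.6% of the 4011 genes in bases and of 80.4% as a log2 ratio. Input 3 was the longest input library and RIP 3 the longest RIP library. Of its 15 transcripts, 8 are 7573 to 10070 bases long with a 3′ UTR of 1053 to 3229 bases, 5 are 6195 to 6457 bases long and 2 are truncated forms of 3476 and 3631 bases. The 8 long ones made up at least 49.1%, 49.7% and 54.8% of the Dscam2 transcripts in input and at least 60.1%, 58.0% and 62.8% in RIP. The weighted lengths lie inside the length range of the long class, so no upper bound below 100% follows.

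For Dscam1 and Dscam3 the weighted lengths overlapped between the groups. Dscam1 had input lengths of 8124, 8209 and 8171 bases and RIP lengths of 8196, 8128 and 8313 (difference 44.5 bases, exact permutation p = 0.6), and without RIP 3 the difference was -5.97. The bounds on Dscam1-RCD, the single listed transcript with a 3′ UTR of 2752 rather than 1129 bases, ran from 26.1% to 35.6% over the input libraries and from 26.4% to 42.8% over the RIP libraries, the highest being RIP 3. Dscam3 had input lengths of 7383, 7264 and 7123 bases and RIP lengths of 7277, 7557 and 7473 (difference 179 bases, exact permutation p = 0.2). The truncated Dscam3-RD, of 3712 bases, left 75.5% to 93.1% for the full-length forms in input and 78.9% to 97.5% in RIP.

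A greater weighted length in RIP was common. Of the 4011 genes, 35.1% had all RIP lengths above all input lengths, as Dscam2 and Dscam4 did, and 13.9% had them below. The mean fragment length, which enters RSEM's model, ranged from 162 to 172 bases in input libraries, while RIP libraries had 195 to 207, and its part in the lengths was not tested.

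**Figure D4:**
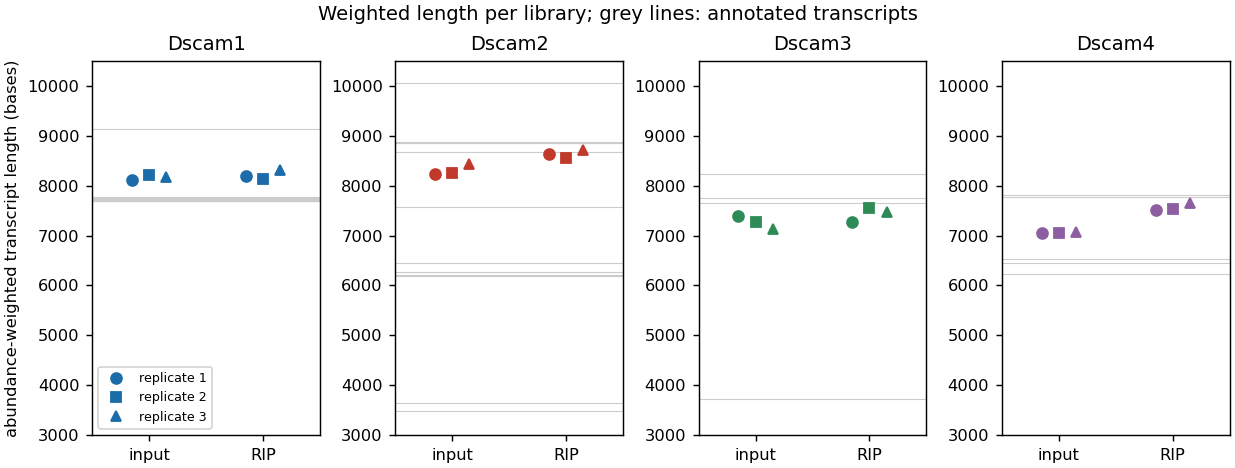
Abundance-weighted transcript length (bases; the axis starts at 3000) of each Dscam gene in each library, with marker shapes for replicate numbers and grey lines at the lengths of the annotated transcripts. Dscam4 moves from 7042 to 7071 bases in input to 7507 to 7663 in RIP, Dscam2 moves up without overlap, and the groups overlap for Dscam1 and Dscam3.

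Genes that act with Dscam proteins were mostly enriched too, as were long genes in general. The counts of this and the following lists stand against 20.2% of all tested genes enriched and 17.0% depleted, and 10.2% and 10.6% with the length trend removed. Of 14 listed genes for Dscam signalling and partners, 11 rose and 0 fell (median log2 fold change 0.57, against 0.06 for all genes), and with the length trend removed 4 rose and 2 fell (median 0.03). Without input replicate 2, 7 of the 14 were called. NetB, a Netrin guidance cue, rose from 44.1 ± 3.93 to 109 ± 9.96 CPM (log2 1.31 ± 0.11, edgeR adjusted p = 0.000533). robo1, a receptor for Slit, rose 1.97-fold (edgeR adjusted p = 0.000787). dock, the adaptor that links Dscam1 to the kinase Pak, was at log2 0.29 (edgeR adjusted p = 0.0323) and Pak at 0.98 (edgeR adjusted p = 0.00211). They were picked for that role. With the length trend removed dock was at -0.17 and Pak at 0.41. Scaled to the library size outside rRNA, dock was at -0.09 (edgeR adjusted p = 0.387) and Pak at 0.60 (edgeR adjusted p = 0.00143).

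RNA-binding proteins known to act on Dscam RNAs were tested as a list of 6, of which 5 rose and 0 fell (median log2 1.19), with 5 and 0 also after removal of the length trend (median 0.62). With the replicate block 5 rose and 1 fell, and scaled to the library size outside rRNA 4 rose and 1 fell. elav, the pan-neuronal protein that promotes the long 3′ UTR form of Dscam1, rose 3.36-fold (log2 1.75 ± 0.16, edgeR adjusted p = 0.000777). mbl, the muscleblind splicing regulator of the Dscam2 exon choice, rose 3.04-fold, from 339 ± 31.8 to 1029 ± 173 CPM (edgeR adjusted p = 0.000836). Hrb87F, an hnRNP that acts in the choice of Dscam1 exons and was picked because it was not called, stood at log2 -0.27 (edgeR adjusted p = 0.117). It was the member called depleted in those 2 alternatives, at log2 -0.27 with the block and -0.65 with the other scaling (edgeR adjusted p = 0.0082 and 0.000465).

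RNAs of other surface proteins of the immunoglobulin superfamily were mostly enriched as well. Of 24 listed adhesion and guidance receptors, 19 rose and 1 fell (median log2 0.78; 6 and 3 with the length trend removed, median 0.11), and 1 of the 24 had a higher fold change than Dscam2. fred, a paralog of echinoid, rose 2.24-fold and sns, the receptor of myoblast fusion, 1.99-fold. wrapper, a glial surface protein with an RNA of 1977 bases, fell from 3.94 to 2.47 CPM (log2 -0.67 ± 0.19, edgeR adjusted p = 0.0323). With the length trend removed fred was at log2 0.44, sns at 0.16 and wrapper at -0.64. Of 31 tested Dpr and DIP genes, whose proteins pair in synaptic partner choice, 23 rose and 0 fell (median 0.77; 14 and 0 with the length trend removed, median 0.39). Among them dpr8 was at log2 1.40 and DIP-alpha at 1.66 (edgeR adjusted p = 0.000723 and 0.000743). All 9 listed cadherin and other adhesion genes rose (median 0.88; 2 rose and 0 fell with the length trend removed, median 0.08), with Ten-a, a teneurin, at 1.15 and Con, the connectin gene, at 1.37 (edgeR adjusted p = 0.000679 and 0.000902).

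Markers of the cell types in a head were present in all libraries, none at 0 throughout. All 6 neuron markers rose (median log2 1.27), and their summed CPM was 3380 to 4544 in input and 7037 to 8729 in RIP. With the length trend removed 3 of the 6 rose and 0 fell (median 0.56). Their part in the Dscam result was not tested. None of 5 photoreceptor markers was called (summed CPM 7398 to 8225 in input and 7439 to 7800 in RIP), nor any of 5 glial markers (599 to 913 and 521 to 758) or 5 fat body markers (2201 to 5948 and 2488 to 5900). Of 6 muscle markers 1 rose and 2 fell (4285 to 4807 and 4343 to 4926). Hemocytes, which also express Dscam1, had low marker levels, 36.4 to 42.2 CPM in input and 35.0 to 37.2 in RIP, and 0 of 4 tested markers was called. With the replicate number as a block, 32.7% of all genes were enriched and 27.7% depleted. In that fit 1 photoreceptor, 1 glial, 1 muscle and 1 fat body marker rose, and 1, 2, 3 and 3 fell. The block fit called 0 hemocyte markers. With the length trend removed, 3 photoreceptor, 1 glial, 3 muscle and 2 hemocyte markers fell. Scaled to the library size outside rRNA, 3, 4, 4 and 2 of these fell, where 31.8% of all genes were depleted. In both fits 0 of these markers rose, and 0 fat body markers were called.

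Over the 6 libraries, the RNAs whose centred log2 CPM lay nearest to a Dscam RNA were sought among 6040 genes with a mean of at least 5 CPM. The profile of Dscam1 was nearest to those of CG32432, Nlg2 and Srrm234 (root mean square difference 0.02, 0.03 and 0.04 on the log2 scale), and that of Dscam4 to Daxx, CG18304 and wdn (0.02, 0.03 and 0.03). Dscam3 was nearest to lncRNA:CR45054, peb and Srrm234 (0.04, 0.04 and 0.05). The nearest profiles to Dscam2 were those of Shab, Pitslre and SP555, farther off at 0.09, 0.10 and 0.10, and its distance to the other Dscam genes was 0.25 to 0.32. Between Dscam1 and Dscam3 and between Dscam1 and Dscam4 the distance was 0.06. With 6 libraries in 2 groups, such likeness mostly reflects a similar fold change.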

How the data were processed

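Per the submitters' processing notes, the authors used build dm6, DESeq2 1.20.0, RSEM 1.2.30, STAR 2.5.4b and Trim Galore 0.4.5; neither the annotation release nor the strand setting is stated. The authors deposited, per the file headers, RSEM expected counts, TPM, length and posterior SD per gene. Symbols, coordinates and transcript structures came from Ensembl's annotation of dm6, whose lengths equalled the deposited ones (within 0.5 base) for 99.2% of 9736 single-transcript genes. Expected counts were rounded, filtered with filterByExpr, scaled by TMM and tested over all genes with edgeR's quasi-likelihood test, group only (R 4.3.3, edgeR 4.0.16, limma 3.58.1; alternative, DESeq2 1.42.0), with Benjamini-Hochberg adjustment at 0.05; SEs were derived from the F statistic. The deposited TPM served as an alternative (limma on log2(TPM + 1)). The length trend was removed with per-library loess offsets (span 0.3) on log2 length. All fold changes are thus relative to most other genes.

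Members and gene lists were chosen with earlier results of these data known, so the lists carry no adjusted test of their own. Named genes are the 4 members, the 2 genes of smallest p per list and direction past the threshold, and the 3 nearest profiles per member. dock and Pak were added for their role, and Hrb87F because it was the listed RNA-binding gene not called. In each group, all pairs of replicates differed beyond sampling noise (chi-square over its degrees of freedom, 14.8 to 138). Same-numbered input and RIP libraries deviated together (correlations 0.665, 0.604 and 0.848), but replicates 1 and 2 correlated about as well across numbers (0.626 and 0.604). The main tests did not treat the shared numbers as pairs. A replicate block and differences between same-numbered libraries were run as alternatives. On simulated RIP and input counts (11455 genes), 2.99% of 67 genes with a planted 1.5-fold change were recovered, 17.9% of 67 with a 2-fold and 86.4% of 66 with a 4-fold change; 9 of 80 calls were false.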

Additional observations from a re-analysis of the deposited data

How the results depend on the processing

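Each member's log2 fold change was recomputed under 19 alternatives, fixed when the lists were chosen. Dscam2 kept its call in 18, and Dscam1, Dscam3 and Dscam4 in 16 each. These include library size scaling and log2(TPM + 1), where most genes were called enriched, so a kept call there says little. The fits that left out libraries share most of their data, so the alternatives are not independent of each other. Scaled to the library size outside rRNA, Dscam1 (0.33), Dscam3 (0.39) and Dscam4 (0.26) were not called, leaving 1 member enriched beside 1302 genes enriched and 3709 depleted. With the length trend removed, Dscam2 stood at 0.41, Dscam1 at -0.12, Dscam3 at -0.019 and Dscam4 at -0.15, 0 members were called, and 1195 genes were enriched and 1240 depleted. With that and the replicate block, Dscam1 (-0.12), Dscam3 (-0.018) and Dscam4 (-0.15) again lay below 0 and 1 member was called. The replicate block alone gave 3821 enriched and 3229 depleted genes, and all 4 members stayed enriched; it changed no other member call. Library size scaling gave 9386 and 173 genes (median of all genes 1.90), and log2(TPM + 1) 11296 and 25 (median 2.54). Without both replicate 3 libraries 3498 genes were depleted. The cause of these changes was not tested.

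Leaving out 1 library at a time kept all 4 members called: Dscam1 0.59 to 0.75, Dscam2 1.10 to 1.35, Dscam3 0.65 to 0.87 and Dscam4 0.55 to 0.68 (edgeR adjusted p up to 0.024), with 1593 to 2608 genes enriched and 1409 to 2361 depleted. All differences between members kept their sign, with Dscam1 over Dscam2 at -0.59 to -0.47, Dscam2 over Dscam3 at 0.42 to 0.53 and Dscam2 over Dscam4 at 0.54 to 0.69 when 1 library was left out. The Dscam1 length difference ran from -5.97 to 86.6 bases in those fits and was -4.51 without both replicate 3 libraries; the other lengths kept their sign. Of the 24 immunoglobulin superfamily genes, 9 to 24 were called over all alternatives, and of the 14 partner genes 6 to 14. The upper ends came only from library size scaling and log2(TPM + 1), where 9386 and 11296 of 11670 genes were enriched, so they say little about the lists. The lower ends came from the fit with the length trend removed, where 1195 genes were enriched and 1240 depleted. Leaving out 1 library gave 7 to 11 of the partner genes, with 7 without input replicate 2. Depth limits the input side most: Dscam3 had 581 to 967 counts there.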
